A study of Mus musculus with 3 samples.

Results

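Malat1 and Neat1 are neighbouring genes on mouse chromosome 19 whose RNAs are not translated and stay in the nucleus. Their values were taken from the 2 rows that carry these symbols among the 27998 genes listed for each of 3 single-nucleus RNA libraries. Both genes were chosen by measured values: earlier results of the same data showed a high Malat1 share in the mutant library, so its Malat1 level is given as a description. The libraries came from whole mouse hearts at embryonic day 9.5, and each was made from 5 pooled, frozen hearts whose nuclei had been sorted by flow cytometry. One library was Ncx1-/-, 1 was Ncx1+/- and 1 was Ncx1+/+. Ncx1 is an alias of Slc8a1, the plasma membrane sodium-calcium exchanger, and mouse embryos without it are known as a model of hearts that do not pump blood. No treatment was given in the labels, and the strain and sex of the embryos are not stated there.

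Malat1 RNA is among the most abundant RNAs of mammalian nuclei and collects in nuclear speckles, the bodies that store splicing factors. It carries no ordinary poly(A) tail: its 3′ end is cut by RNase P next to an A-rich tract encoded in the genome, and that tract folds back onto U-rich stretches to form a triple helix that protects the end. Neat1 is the scaffold of paraspeckles. Its long isoform ends in the same way as Malat1 and is needed for these bodies, whereas its short isoform ends at an ordinary polyadenylation signal. In human cells, low oxygen is known to raise NEAT1 and MALAT1.

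Malat1 (ENSMUSG00000092341) lies on the minus strand at chr19:5795690-5802672 of GRCm38, as a single exon of 6983 bases in the GENCODE M21 annotation. Neat1 (ENSMUSG00000092274) lies 22035 bases further up the same chromosome, also on the minus strand, at chr19:5824708-5845478. Its long isoform is a single exon of 20771 bases, and its short isoform has 2 exons and 3004 bases. The labels give polyA RNA as the molecule of these libraries, and the 3′ ends are shown because they hold the processing elements of each RNA. The Malat1 window spans chr19:5795962-5796041, the end of the long Neat1 isoform chr19:5824708-5824787, and the end of the short isoform chr19:5842307-5842386, all read 5′ to 3′ on the minus strand. In the first pair of lines the capitals mark the longest stretch that both windows share, 16 bases of which 9 are T, and then the A-rich tract. In the last line they mark the AATAAA polyadenylation signal.
Malat1: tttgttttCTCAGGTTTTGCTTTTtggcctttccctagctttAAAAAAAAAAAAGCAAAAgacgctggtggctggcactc
Neat1 long isoform: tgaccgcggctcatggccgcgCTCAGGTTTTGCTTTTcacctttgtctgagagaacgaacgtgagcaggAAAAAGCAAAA
Neat1 short isoform: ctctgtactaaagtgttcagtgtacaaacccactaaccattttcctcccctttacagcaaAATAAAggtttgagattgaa
The Malat1 transcript holds a run of 12 A, which starts at base 6674 and lies 298 bases before the annotated 3′ end. The longest run anywhere in the long Neat1 isoform is 7 A, and anywhere in the short isoform 5 A. The 11 bases of the A-rich end of long Neat1 are also found within the tract of Malat1. The counts do not tell the Neat1 isoforms apart, and the sources used here do not say which part of either RNA was read.

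The libraries held 12525, 12563 and 13805 barcodes in Ncx1-/-, Ncx1+/- and Ncx1+/+, of which 12325, 12305 and 13562 had at least 500 detected genes and were kept. Median depth was 3697, 3503 and 3907.5 unique molecular identifiers (UMIs, each counted as 1 captured RNA molecule) per nucleus. Levels are given as CPM, the UMIs of a gene per 1000000 UMIs of its class and library. Slc8a1 itself stood at 1027 CPM in Ncx1-/-, 6538.5 CPM in Ncx1+/- and 11825 CPM in Ncx1+/+, in the order the labels imply. Between 40 and 57 barcodes were shared by any pair of libraries. With 1 library per genotype there is no replicate error: no test between genotypes was possible, the intervals given here are exact 95% intervals that cover counting error only, and genotype, pool and library cannot be told apart.

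Nuclei were placed in classes by the share of UMIs from fixed marker genes. The cardiomyocyte gate held 9855, 9087 and 9652 nuclei in Ncx1-/-, Ncx1+/- and Ncx1+/+, the gate for endocardial and other endothelial nuclei 1476, 1883 and 2153, the mesenchyme-type gate 97, 126 and 297, the erythroid gate 59, 362 and 444, and the epicardial gate 56, 1 and 36. All 15 cardiomyocyte markers were detected in the cardiomyocyte class and all 16 endothelial markers in the endocardial class of every library. The cardiomyocyte markers summed to 28063, 27424 and 25862 CPM in the cardiomyocyte class and to 3807, 2984 and 2826 CPM in the endocardial class. That is 13.6%, 10.9% and 10.9% of the cardiomyocyte level, so cardiomyocyte markers were counted in endocardial nuclei too, most in Ncx1-/-; their part in the differences below was not tested.

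Malat1 took a larger share of UMIs in Ncx1-/- than in both other genotypes, in cardiomyocyte and endocardial nuclei alike. In cardiomyocyte nuclei it made up 9.34% of UMIs in Ncx1-/-, against 5.73% in Ncx1+/- and 5.57% in Ncx1+/+. In endocardial nuclei the shares were 4.02% in Ncx1-/-, 2.50% in Ncx1+/- and 2.35% in Ncx1+/+. The Ncx1-/- share was thus 1.68 times that of Ncx1+/+ in cardiomyocyte nuclei (interval 1.67 to 1.68) and 1.71 times in endocardial nuclei (1.70 to 1.72), and both heterozygous values lay close to the wild-type ones, at 1.03 and 1.07 times.

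The smaller classes showed the same order for the mutant, with 1 exception. Mesenchyme-type nuclei gave 4.20% of UMIs to Malat1 in Ncx1-/-, 2.51% in Ncx1+/- and 2.68% in Ncx1+/+, a ratio of 1.57 to Ncx1+/+. Erythroid nuclei gave 6.69% in Ncx1-/-, 3.71% in Ncx1+/- and 4.04% in Ncx1+/+, a ratio of 1.66 to Ncx1+/+. Epicardial nuclei gave 4.56% in Ncx1-/- and 4.60% in Ncx1+/+, a ratio of 0.991 (0.961 to 1.02). The makeup of the mesenchyme-type class differed: endothelial markers summed to 1952 CPM in Ncx1-/-, 5534 CPM in Ncx1+/- and 4995 CPM in Ncx1+/+, and epicardial markers to 522, 128 and 107 CPM. Cardiomyocyte markers stood at 15.2%, 10.3% and 11.2% of their cardiomyocyte level in mesenchyme-type nuclei and at 20.7%, 17.0% and 16.3% in erythroid nuclei. The part of these differences in the Malat1 values was not tested. The epicardial class is small, at 56 and 36 nuclei, and the single Ncx1+/- nucleus in it was not used. Over all kept nuclei the shares were 8.41%, 4.94% and 4.69%, so that Ncx1-/- stood at 1.79 times Ncx1+/+, more than in any single class. Cardiomyocyte nuclei, the class with the highest share, were 79.96% of kept nuclei in Ncx1-/-, 73.8% in Ncx1+/- and 71.2% in Ncx1+/+, and with the class makeup of Ncx1+/+ the ratio was 1.67.

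Cell classes also differed, by a similar factor in each library. The Malat1 share of cardiomyocyte nuclei was 2.33 times that of endocardial nuclei in Ncx1-/-, 2.29 times in Ncx1+/- and 2.37 times in Ncx1+/+. Over erythroid nuclei it was 1.40, 1.54 and 1.38 times, and over mesenchyme-type nuclei 2.23, 2.28 and 2.08 times. Malat1 had more UMIs than any other gene in every class of every library, counted as UMIs and not per length.

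The whole distribution over nuclei lay higher in the mutant. The median cardiomyocyte nucleus gave 8.33% of its UMIs to Malat1 in Ncx1-/-, 4.93% in Ncx1+/- and 4.86% in Ncx1+/+, and 77.5% of Ncx1-/- cardiomyocyte nuclei lay above the Ncx1+/+ median. In the endocardial class the medians were 3.80%, 2.27% and 2.11%, and 83.9% of Ncx1-/- nuclei lay above the Ncx1+/+ median. The spread within a library was nevertheless wide: the central 90% of cardiomyocyte nuclei ran from 2.08% to 17.7% in Ncx1-/- and from 1.33% to 10.8% in Ncx1+/+, so single nuclei of the genotypes overlap. Cardiomyocyte nuclei with more than 20% of UMIs from Malat1 numbered 216 in Ncx1-/-, 9 in Ncx1+/- and 1 in Ncx1+/+.

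The higher share came with more Malat1 molecules per nucleus, not only with fewer molecules of other genes. The median cardiomyocyte nucleus held 325 Malat1 UMIs in Ncx1-/-, 179 in Ncx1+/- and 189 in Ncx1+/+, beside 3339, 3247 and 3574 UMIs of all other genes. The median endocardial nucleus held 143 Malat1 UMIs in Ncx1-/-, 95 in Ncx1+/- and 104 in Ncx1+/+. Beside these it held 3486, 4043 and 4848 UMIs of all other genes, so in this class the mutant had more Malat1 and fewer other UMIs.

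**Figure D1:**
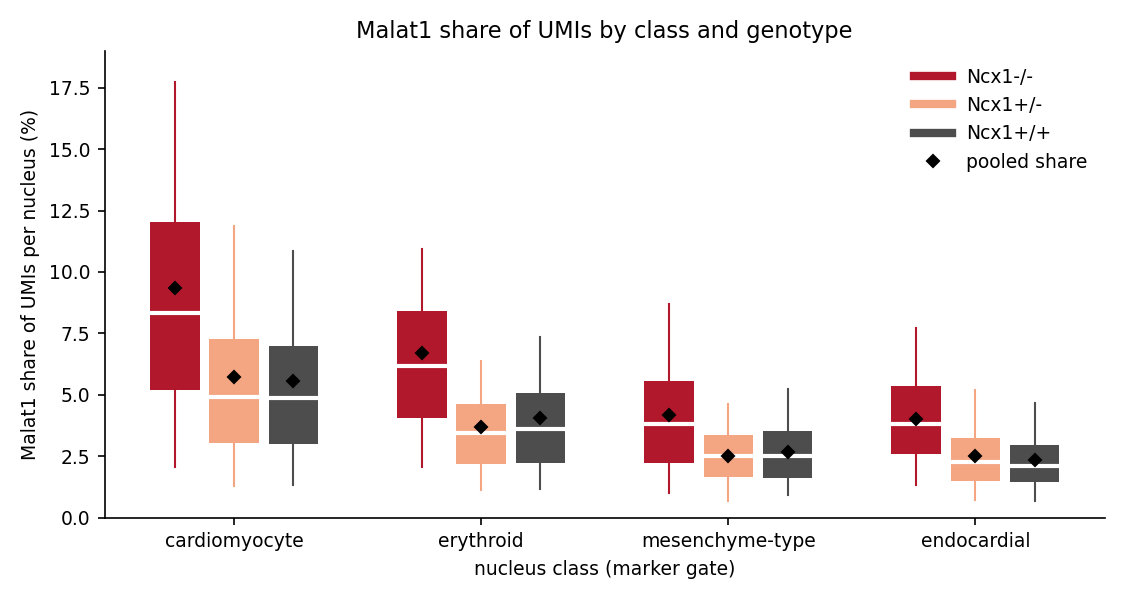
Malat1 share of UMIs per nucleus (vertical axis, %) in 4 marker-gated classes for Ncx1-/-, Ncx1+/- and Ncx1+/+, 1 library each. Boxes span the 25th to 75th percentile of nuclei with the median as a white line, thin lines the 5th to 95th, and diamonds the share in the summed UMIs, which is highest in Ncx1-/- in all 4 classes shown (9.34% in cardiomyocyte and 4.02% in endocardial nuclei).

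Depth changed the Malat1 share in cardiomyocyte nuclei, but Ncx1-/- had the highest share at every depth. Among cardiomyocyte nuclei with 1000 to 2000 UMIs the share was 5.71% in Ncx1-/-, 3.94% in Ncx1+/- and 3.55% in Ncx1+/+. Among those with 4000 to 8000 UMIs it was 10.3%, 6.14% and 6.07%. Deeper cardiomyocyte nuclei thus had the higher Malat1 share in all 3 libraries up to this depth, and Spearman's rho between share and depth over nuclei of 1 library was 0.277, 0.252 and 0.305 (9855, 9087 and 9652 nuclei that share a library; depth enters both measures). In endocardial nuclei the share hardly moved with depth (rho of -0.0644, -0.0676 and 0.0048), with 4.41% in Ncx1-/-, 2.63% in Ncx1+/- and 2.39% in Ncx1+/+ at 2000 to 4000 UMIs and 3.82%, 2.37% and 2.23% at 4000 to 8000 UMIs. The ratio of Ncx1-/- to Ncx1+/+ lay between 1.49 and 1.80 over 6 depth ranges in cardiomyocyte nuclei and between 1.34 and 1.84 over 4 ranges in endocardial nuclei.

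**Figure D2:**
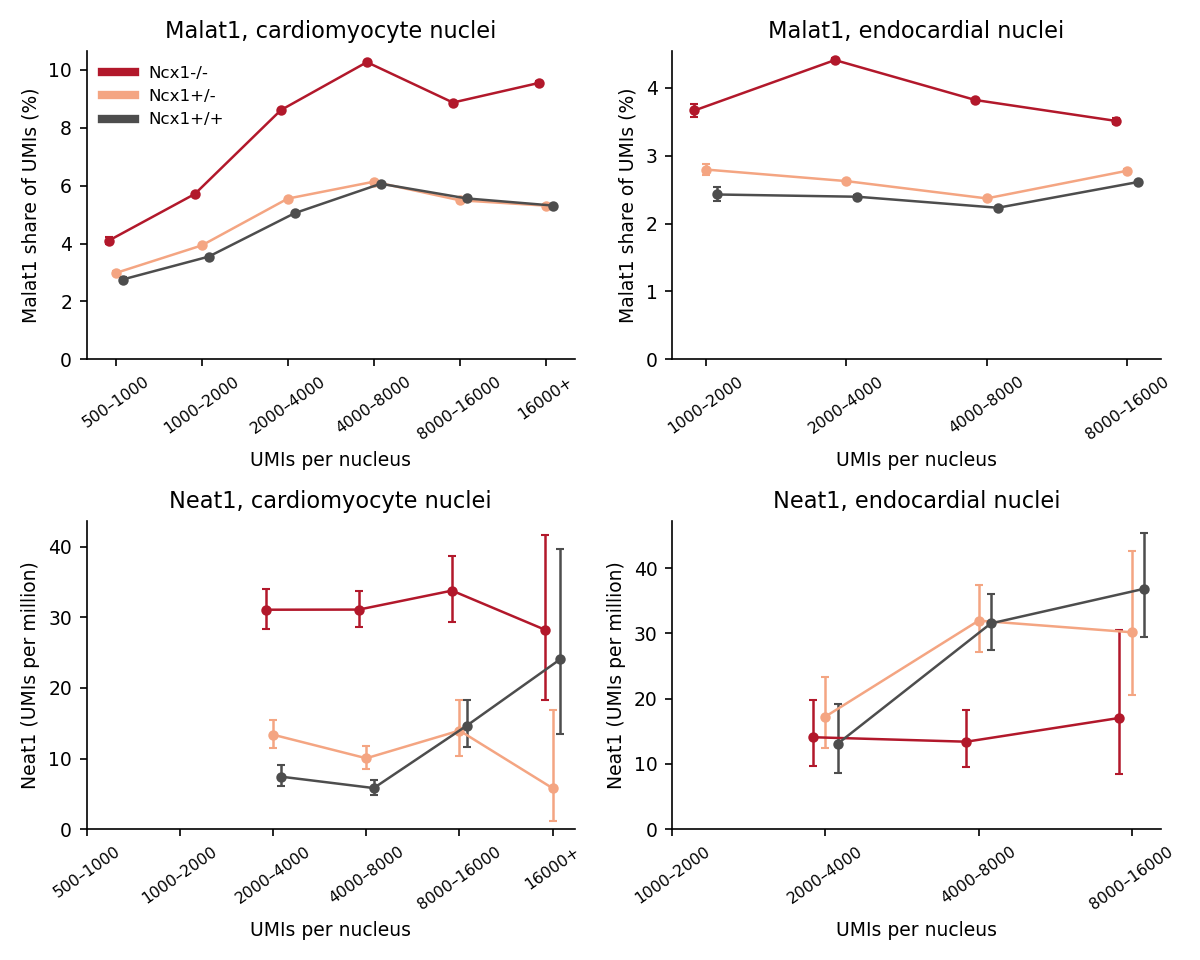
Malat1 share of UMIs (upper row, %) and Neat1 level (lower row, CPM) in cardiomyocyte (left) and endocardial nuclei (right), by UMIs per nucleus, for 1 library per genotype. Bars are exact 95% counting intervals; Neat1 is drawn from 2000 UMIs upward. Malat1 in Ncx1-/- lies above both other libraries in each range, whereas endocardial Neat1 in Ncx1-/- is below them at 4000 to 8000 UMIs (13.4 against 32.0 and 31.5) and near them at 2000 to 4000 UMIs.

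Neat1 was higher in Ncx1-/- cardiomyocyte nuclei and lower in Ncx1-/- endocardial nuclei than in both other genotypes. In the cardiomyocyte class it stood at 31.2 CPM in Ncx1-/- (1318 UMIs), 12.1 CPM in Ncx1+/- (427 UMIs) and 7.91 CPM in Ncx1+/+ (323 UMIs). The mutant level was 3.95 times that of Ncx1+/+ (3.49 to 4.47) and 2.59 times that of Ncx1+/- (2.32 to 2.89), and the heterozygous level 1.53 times that of Ncx1+/+ (1.32 to 1.77). Over the whole class the genotypes were therefore ordered, with the heterozygote between the other libraries but nearer the wild type.

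In the endocardial class Neat1 stood at 13.7 CPM in Ncx1-/- (84 UMIs), 27.2 CPM in Ncx1+/- (231 UMIs) and 28.9 CPM in Ncx1+/+ (333 UMIs). The mutant level was 0.475 times that of Ncx1+/+ (0.370 to 0.605) and 0.506 times that of Ncx1+/- (0.389 to 0.652), and the intervals of Ncx1+/- and Ncx1+/+ overlapped. Within a library the level in cardiomyocyte nuclei was 2.27 times that in endocardial nuclei in Ncx1-/-, but 0.444 times in Ncx1+/- and 0.274 times in Ncx1+/+. The class with more Neat1 was thus the cardiomyocyte class in the mutant and the endocardial class in the other libraries. Over all nuclei the levels were 28.5, 15.4 and 13.4 CPM, which follows the cardiomyocyte class.

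Neat1 counts per nucleus were low. A Neat1 UMI was seen in 1014 of 9855 Ncx1-/-, 366 of 9087 Ncx1+/- and 271 of 9652 Ncx1+/+ cardiomyocyte nuclei, and in 73 of 1476, 152 of 1883 and 217 of 2153 endocardial nuclei, most of them with a single UMI. Erythroid nuclei, at median depths of 1588 to 1856 UMIs, gave 1 of 59, 5 of 362 and 5 of 444 nuclei with a UMI. No class here is known to lack Neat1, so no background level was taken. Mesenchyme-type nuclei had 8, 13 and 31 Neat1 UMIs, and their levels of 21.4, 22.5 and 19.3 CPM could not be told apart at this depth. The highest count in 1 nucleus was 25 UMIs, in an Ncx1+/+ cardiomyocyte nucleus, and the 10 nuclei with the most Neat1 held 18.0% of the Neat1 UMIs of that class in Ncx1+/+, against 3.72% in Ncx1-/-.

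Depth bears on the endocardial difference. In cardiomyocyte nuclei with 2000 to 4000 UMIs Neat1 stood at 31.1 CPM in Ncx1-/-, 13.4 CPM in Ncx1+/- and 7.45 CPM in Ncx1+/+, and at 4000 to 8000 UMIs at 31.1, 10.0 and 5.83 CPM, so the cardiomyocyte order was the same in both ranges. At 8000 to 16000 UMIs the levels were 33.8, 14.0 and 14.7 CPM, on 214, 52 and 77 Neat1 UMIs. The mutant was highest there too, but Ncx1+/- was not above Ncx1+/+. At 16000 UMIs and above, where 25, 3 and 15 Neat1 UMIs were counted, the levels were 28.2, 5.80 and 24.1 CPM and the mutant and wild type were close. Endocardial nuclei with 4000 to 8000 UMIs were different: the levels were 13.4 CPM in Ncx1-/- (9.54 to 18.3), 32.0 CPM in Ncx1+/- (27.1 to 37.4) and 31.5 CPM in Ncx1+/+ (27.5 to 36.0). At 2000 to 4000 UMIs they were 14.1 CPM in Ncx1-/- (9.71 to 19.8), 17.3 CPM in Ncx1+/- (12.4 to 23.3) and 13.1 CPM in Ncx1+/+ (8.56 to 19.2). The lower endocardial level of the mutant was therefore seen in deeper nuclei, and at 2000 to 4000 UMIs the intervals of the 3 libraries overlapped. Median depth of endocardial nuclei was 3661 UMIs in Ncx1-/-, 4160 in Ncx1+/- and 4960 in Ncx1+/+.

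Within the endocardial class, nuclei with a Neat1 UMI differed from the others in several genes. At 0.057, 0.123 and 0.155 Neat1 UMIs per nucleus in Ncx1-/-, Ncx1+/- and Ncx1+/+, a nucleus without one may still hold Neat1 RNA. Nuclei with a Neat1 UMI were compared with nuclei of the same library and depth that had none, and the genes furthest apart in both Ncx1+/- and Ncx1+/+ were Apba1, Ptprj, Fam155a, Kcnc2 and Ccdc141. Fam155a, which encodes a subunit of the NALCN sodium leak channel, stood at 352 CPM in Ncx1+/- and 493 CPM in Ncx1+/+ nuclei with Neat1, against 55.3 and 127 CPM in nuclei without it. Ccdc141 stood at 1998 and 2295 CPM, against 533 and 724 CPM. Nrg1, the neuregulin ligand that endocardium sends to cardiomyocytes, was at 3666 and 3654 CPM against 1993 and 2409 CPM. Heg1, an endothelial receptor needed for heart wall growth, was at 1166 and 1263 CPM against 503 and 585 CPM. In Ncx1-/-, where 73 endocardial nuclei had a Neat1 UMI, Ccdc141 stood at 430 CPM in them against 249 CPM in the others. Nrg1 stood at 941 against 762 CPM there and Heg1 at 627 against 387 CPM. Fam155a (13.0 against 3.07 CPM) and Apba1 (23.3 against 7.64 CPM) were also higher, on 5 and 9 UMIs. Ptprj (23.3 against 22.0 CPM) and Kcnc2 (10.4 against 10.6 CPM) were at like levels, on 9 and 4 UMIs. Rbm47, Boc and Rnf220 were next furthest apart in Ncx1+/- and Ncx1+/+. In Ncx1-/- nuclei with Neat1 they were not higher, at 7.78 against 10.9, 15.6 against 16.1 and 75.2 against 79.7 CPM. These rest on 3, 6 and 29 UMIs. Nrg1 and Heg1 were named outside this order. Endocardial nuclei with a Neat1 UMI were thus richer in Fam155a, Ccdc141, Nrg1 and Heg1 in each library, but not in every gene of the comparison. In Ncx1-/- this rests on 73 nuclei, and for Fam155a on 5 UMIs.

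Those 4 genes were all lower in the endocardial class of the mutant. Fam155a stood at 3.44 CPM in Ncx1-/-, 81.5 CPM in Ncx1+/- and 153 CPM in Ncx1+/+. Ccdc141 stood at 215, 642 and 822 CPM, Nrg1 at 720, 2051 and 2371 CPM, and Heg1 at 365, 549 and 636 CPM. When endocardial nuclei were ranked by the summed UMIs of the 4 genes at equal depth, Neat1 stood at 21.8 CPM in the upper 25% of Ncx1-/- nuclei, 59.1 CPM in that of Ncx1+/- and 66.3 CPM in that of Ncx1+/+. In the lower 25% it stood at 10.7, 10.0 and 8.09 CPM. The upper 25% held 3070 CPM of the 4 genes in Ncx1-/-, 8421 CPM in Ncx1+/- and 9943 CPM in Ncx1+/+, so these nuclei were not equally rich in them. In the lower 25%, where 16, 21 and 23 Neat1 UMIs were counted, no difference was detectable at this depth. The genes of this ranking were chosen because they went with Neat1, after their values were seen, and their part in the genotype difference was not tested.

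In cardiomyocyte nuclei of Ncx1+/+ several endothelial genes went with Neat1. Nuclei with a Neat1 UMI had 128 CPM of Tek, the endothelial angiopoietin receptor, against 47.9 CPM at the same depth without one, 69.0 against 28.1 CPM of Flt1, a VEGF receptor of endothelium, and 77.3 against 4.51 CPM of A2m, a protease inhibitor. Nrg1 stood at 199.98 CPM against 88.2 CPM there, while Ccdc141 stood at 2289.8 CPM against 2283 CPM. In Ncx1+/- the same comparison gave 85.1 against 51.1 CPM of Tek, 53.9 against 36.1 of Flt1 and 24.4 against 7.97 of A2m. In Ncx1-/- it gave 49.5 against 51.1 CPM of Tek, 82.8 against 66.8 of Flt1 and 47.8 against 33.1 of A2m. The cardiomyocyte gate leaves in nuclei whose endothelial markers fall below the endothelial gate, and endothelial markers summed to 439, 435 and 429 CPM in the cardiomyocyte class of Ncx1-/-, Ncx1+/- and Ncx1+/+.

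**Figure D3:**
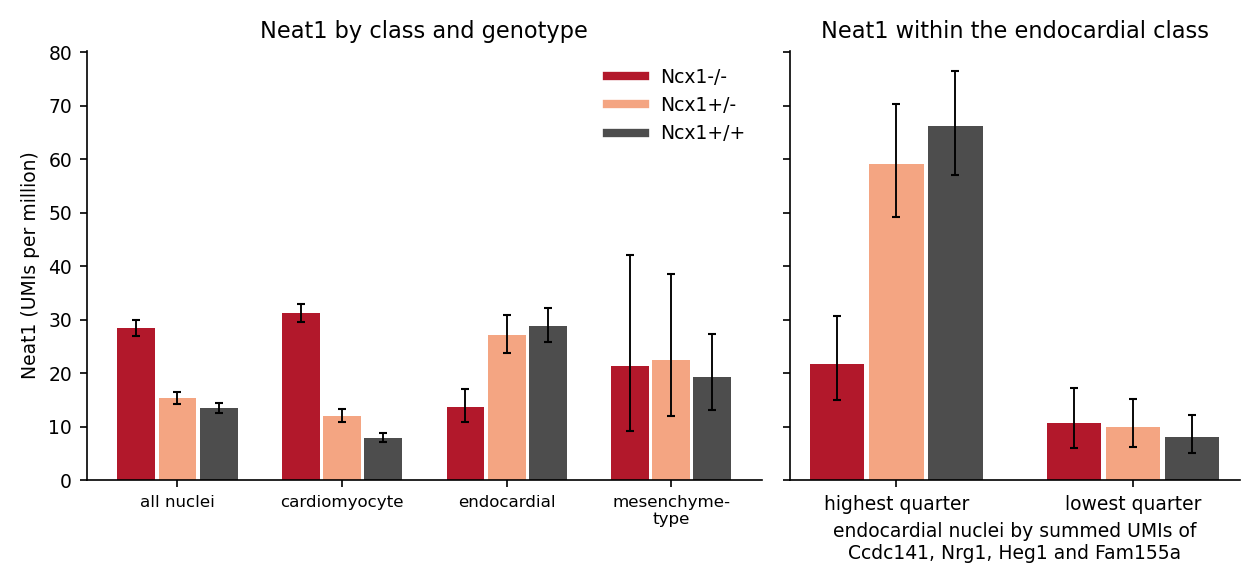
Neat1 level (vertical axis, CPM) with exact 95% counting intervals, 1 library per genotype. Left, all kept nuclei and 3 classes: Ncx1-/- is highest in cardiomyocyte nuclei (31.2 against 12.1 and 7.91) and lowest in endocardial nuclei (13.7 against 27.2 and 28.9). Right, endocardial nuclei with the highest and the lowest 25% of summed UMIs of Ccdc141, Nrg1, Heg1 and Fam155a: Ncx1-/- is below both others on the high side (21.8 against 59.1 and 66.3), and the intervals overlap on the low side (10.7, 10.0 and 8.09).

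Set beside all other genes, Malat1 and Neat1 were among a small share that stood apart in the mutant. A gene was called where Ncx1-/- differed by 1.5 times or more, in the same direction, from each of the remaining libraries in CPM and neither ratio had an interval that held 1. In cardiomyocyte nuclei 650 of 14495 measured genes were called higher, 4.48%, and Malat1 and Neat1 were both among them. A further 419 genes, 2.89%, were called lower. In endocardial nuclei 746 of 11053 genes were called higher, 6.75%, with Malat1 among them, and 465 lower, 4.21%, with Neat1 among them. Malat1 was also among the 443 genes called higher in mesenchyme-type nuclei, 8.83%, and the 83 called higher in erythroid nuclei, 2.05%, where 11.3% and 2.92% of genes were called lower. Neat1 had too few counts in both classes to be measured. Since the Malat1 difference chose the members, nothing is read from its calls. With a scaling by trimmed means (TMM) endocardial Malat1 lost its call, at 1.4985 times Ncx1+/- and 1.57 times Ncx1+/+, and under the same scaling 44.5% of endocardial calls were higher, against 61.6% with total UMIs.

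Of the genes of paraspeckle and speckle proteins 1 was called, in classes where 4.48% (cardiomyocyte) and 6.75% (endocardial) of all genes were called higher and 2.89% and 4.21% lower, so little is read from lists of this size. Of 21 measured paraspeckle protein genes, such as Sfpq, 0 were called in either direction in cardiomyocyte and in endocardial nuclei. Sfpq stood at 462 CPM in Ncx1-/-, 512 CPM in Ncx1+/- and 506 CPM in Ncx1+/+ cardiomyocyte nuclei, and at 726, 733 and 732 CPM in endocardial nuclei. The median log2 ratio of the 21 genes to Ncx1+/+ was -0.11 in cardiomyocyte and -0.01 in endocardial nuclei, beside -0.02 and 0.09 over all measured genes. Of 32 nuclear speckle and splicing genes, Prpf4b, a splicing kinase, was called higher in endocardial nuclei (1160, 773 and 721 CPM) and 0 in cardiomyocyte nuclei. Their medians were 0.12 and 0.22. Srrm2, a core protein of speckles, stood at 1519, 1338 and 1097 CPM in cardiomyocyte nuclei, which missed the fold required.

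Of 13 measured genes around the Malat1 locus in cardiomyocyte nuclei, Ltbp3 (2.94, 1.19 and 1.10 CPM) and Cdc42ep2 (2.15, 1.13 and 0.955 CPM) were called higher, and Dpf2, a chromatin remodeller subunit, stood at 57.3, 59.2 and 59.7 CPM. Of 10 measured in endocardial nuclei, Rela, an NF-kappa-B subunit, was called lower, at 8.35, 14.1 and 14.4 CPM. Both genes called in cardiomyocyte nuclei had few counts, 211 and 170 over the 3 libraries.

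Of other RNAs that stay in the nucleus, a few were called higher. Of 13 measured in cardiomyocyte nuclei, Tsix (36.2, 21.8 and 21.9 CPM) and Trp53cor1 (39.4, 21.7 and 21.4 CPM) were called higher. Airn stood at 2629, 2549 and 2650 CPM and Meg3 at 935, 888 and 885 CPM. Of 12 measured in endocardial nuclei, Xist (1726, 940 and 776 CPM), Tsix (40.6, 15.9 and 13.3 CPM) and Snhg11 (29.8, 13.5 and 10.6 CPM) were called higher, while Airn stood at 2803, 3756 and 4493 CPM. Xist stood at 1381, 1014 and 826 CPM in cardiomyocyte nuclei and was not called there. The sex makeup of each pool is not stated, so its part in the Xist and Tsix levels cannot be told apart from genotype. In endocardial nuclei Meg3 stood at 591, 690 and 716 CPM. The share called higher over all genes was 4.48% in cardiomyocyte and 6.75% in endocardial nuclei, and 0 of these RNAs were called lower in either class.

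Markers of RNA quality differed by class and list. Mitochondrial transcripts made up 0.059%, 0.076% and 0.049% of UMIs in Ncx1-/-, Ncx1+/- and Ncx1+/+, and ribosomal protein genes 1.11%, 1.08% and 0.852%. In endocardial nuclei mitochondrial genes summed to 592, 555 and 349 CPM, with mt-Co1 and mt-Nd6 called higher of 12 measured and a median log2 ratio to Ncx1+/+ of 0.74. In cardiomyocyte nuclei they summed to 575, 759 and 518 CPM, with mt-Nd6 called higher of 13. Of 11 measured genes of a handling and ribosomal RNA list in cardiomyocyte nuclei, Hsph1, Fos, Jun and Egr1 were called lower. Fos stood at 16.1, 59.8 and 41.6 CPM. In endocardial nuclei 0 of 11 were called, whereas 14 of 34 ribosomal protein genes were called higher. Over all genes 4.48% were called higher and 2.89% lower in cardiomyocyte nuclei, and 6.75% and 4.21% in endocardial nuclei. With such shares nothing is read from 0 of 11. The part of these RNAs in the Malat1 difference was not tested.

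Genes of low oxygen response and glycolysis were called higher in the mutant in many cases: 15 of 30 in cardiomyocyte and 27 of 28 in endocardial nuclei, with 0 called lower. Over all genes 4.48% and 6.75% were called higher in these classes. Hk2, the hexokinase that opens glycolysis, stood at 898 CPM in Ncx1-/-, 517 CPM in Ncx1+/- and 505 CPM in Ncx1+/+ cardiomyocyte nuclei. Bnip3, a mitophagy receptor, stood at 186, 88.3 and 68.3 CPM. In mesenchyme-type nuclei 14 of 17 measured were called higher and 1 lower, beside 8.83% and 11.3% over all genes. In erythroid nuclei 0 of 16 were called, beside 2.05% higher and 2.92% lower over all genes. The list was still higher in the 59 erythroid nuclei of Ncx1-/-, at a sum of 4483 CPM against 3101 in Ncx1+/- and 3272 in Ncx1+/+. Its median log2 ratio to Ncx1+/+ was 0.47 there. The part of this list in either member's difference was not tested. Within single libraries, cardiomyocyte nuclei in the upper 25% for this list at equal depth had 11.4% of UMIs from Malat1 in Ncx1-/-, 6.73% in Ncx1+/- and 5.91% in Ncx1+/+, against 7.56%, 4.92% and 5.06% in the lower 25%. Neat1 stood at 50.4, 19.7 and 9.95 CPM in the upper 25% and at 19.98, 6.87 and 9.76 CPM in the lower 25%, a ratio of 2.52 in Ncx1-/-, 2.87 in Ncx1+/- and 1.02 (0.765 to 1.36) in Ncx1+/+. The Neat1 ratios in endocardial nuclei were 1.64 (0.851 to 3.25), 0.694 (0.467 to 1.02) and 1.08 (0.780 to 1.504), with intervals that held 1 in all 3 libraries.

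A larger Malat1 share lowers the CPM of every other gene, because CPM divides by a total that includes Malat1. The size of this effect follows from the shares: at unchanged counts, CPM of other genes was multiplied by 0.960 in Ncx1-/- cardiomyocyte nuclei relative to Ncx1+/+ (log2 of -0.06) and by 0.983 in endocardial nuclei (log2 of -0.02). Against Ncx1+/- the factors were 0.962 and 0.984. In cardiomyocyte nuclei Malat1 gained 3.77 points of the UMI share over Ncx1+/+, which was 39.1% of all the gains summed over genes. The next gain was 0.125 points, of Gm42418, a gene that overlaps ribosomal RNA sequence. The largest loss was 1.52 points, of Slc8a1, which held 0.124% of UMIs in Ncx1-/- and 1.64% in Ncx1+/+. In endocardial nuclei the Malat1 gain of 1.67 points was 14.4% of all gains.

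Leaving Malat1 out of the total moved the median gene across 0 in cardiomyocyte nuclei. The median log2 ratio of Ncx1-/- to Ncx1+/+ over 14493 other genes was -0.02 with all UMIs and 0.04 without Malat1, and the share of genes with a higher value in Ncx1-/- was 47.8% with it and 55.1% without. The medians in endocardial nuclei were 0.09 and 0.12. A uniform shift of this size is small beside the fold of 1.5 that a call needs, but many genes lay near that limit.

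With Malat1 and Neat1 left out of the total, 168 more genes were called higher in cardiomyocyte nuclei and 86 were no longer called lower. The counts were 816 higher and 333 lower, against 648 and 419 with all UMIs, so 71.0% of calls were higher without the pair and 60.7% with it. Calls that were lost included Cacna1d, a pacemaker calcium channel, whose ratio to Ncx1+/- was 0.660 with all UMIs and 0.686 without the pair, and Lef1, a Wnt effector, at 0.643 and 0.669. Stox2, Med14 and Nup153 were lost in the same way. Calls that were gained included Ogt, the O-GlcNAc transferase, at 1.45 and 1.51 times Ncx1+/-, and P4ha1, a collagen prolyl hydroxylase, at 1.47 and 1.53. The glycolytic Aldoa, Mthfd1l and Plekha2 were gained too. Of the 30 low oxygen and glycolysis genes 18 rather than 15 were then called higher, the added ones being Aldoa, P4ha1 and Higd1a. Their raw counts were the same in both cases, and only the divisor changed.

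In endocardial nuclei, where the share is smaller, 96 genes were gained as higher and 29 lost as lower, giving 841 higher and 435 lower against 745 and 464. Limch1, Heg1, Jazf1, Cdh11 and Igfbp5 were the lost genes with the most counts, and Esrrg, Rps20, Rps3a1, Asph and Rplp2 the gained ones. Heg1 had 0.665 times the Ncx1+/- CPM with all UMIs and 0.676 times without the pair. No gene in either class lost a call as higher or gained one as lower, as the arithmetic requires.

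The same effect is larger between nuclei of 1 library. Nuclei of each class and library were ranked by Malat1 share at equal numbers of other UMIs, and the upper 25% compared with the lower 25%. In cardiomyocyte nuclei these groups had shares of 15.3% and 3.88% in Ncx1-/-, 9.90% and 2.36% in Ncx1+/-, and 9.38% and 2.40% in Ncx1+/+, so that CPM of all other genes was lower by construction in the upper group, by -11.9%, -7.73% and -7.15%. The change in endocardial nuclei was -4.84%, -3.31% and -2.97%. All values of this ranking below are therefore CPM of the UMIs other than Malat1.

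Neat1 was higher in nuclei with a high Malat1 share. In cardiomyocyte nuclei it stood at 60.7 CPM in the upper 25% and 23.8 in the lower 25% of Ncx1-/-, a ratio of 2.56 (2.19 to 2.995), and the ratio was 3.50 (2.63 to 4.71) in Ncx1+/- and 1.43 (1.01 to 2.03) in Ncx1+/+. The ratios in endocardial nuclei were 1.85 (0.995 to 3.54), 1.72 (1.18 to 2.52) and 2.74 (1.93 to 3.96). In this ranking the pair thus went together between nuclei of 1 class and library. The interval reached 1 in endocardial nuclei of Ncx1-/-. The genotype difference of Neat1 nevertheless had opposite directions in these classes. In a ranking by G2/M genes, given below, the pair did not go together.

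The nuclei with a high Malat1 share also differed in cell cycle genes. In endocardial nuclei the summed level of 25 G2/M genes was 4574 CPM in the upper and 1821 in the lower 25% of Ncx1-/-, a ratio of 2.51, and the ratio was 2.82 in Ncx1+/- and 2.27 in Ncx1+/+. The genes with the largest ratios in all 3 libraries included Kif18b, Ccnb1, Cep55 and Cenpa, which act in mitosis, at 3.39 to 5.08 times. In cardiomyocyte nuclei the G2/M ratio was 1.32, 1.43 and 1.44, and the summed level of 24 S phase genes was lower, at 0.536, 0.559 and 0.550 times. Cdt1, which licenses replication origins, stood at 0.313, 0.396 and 0.392 times, and Chaf1b, which loads histones on new DNA, at 0.338, 0.398 and 0.376 times.

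Ranked the other way, endocardial nuclei in the upper 25% for G2/M genes gave 4.75% of UMIs to Malat1 in Ncx1-/-, 3.22% in Ncx1+/- and 2.82% in Ncx1+/+, against 3.22%, 2.09% and 2.03% in the lower 25%. In cardiomyocyte nuclei the same ranking gave ratios of only 1.02, 1.09 and 1.11. Between genotypes, 0 of 25 G2/M genes and 0 of 24 S phase genes were called in cardiomyocyte or endocardial nuclei. Over all genes 4.48% and 6.75% were called higher in these classes and 2.89% and 4.21% lower, so little is read from lists of this size. In cardiomyocyte nuclei the S phase list summed to 1282 CPM in Ncx1-/-, 1623 in Ncx1+/- and 1690 in Ncx1+/+, with a median log2 ratio to Ncx1+/+ of -0.40. The G2/M list summed to 2874, 3166 and 3074 CPM there.

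Ribosomal protein genes and a handling and ribosomal RNA list had lower sums in cardiomyocyte nuclei with a high Malat1 share. The ribosomal protein list stood at 0.755, 0.689 and 0.722 times in cardiomyocyte nuclei with a high Malat1 share and at 1.11, 0.991 and 0.991 times in endocardial nuclei. The handling and ribosomal RNA list stood at 0.692, 0.645 and 0.680 times in cardiomyocyte nuclei and was lower in endocardial nuclei too, at 0.907, 0.845 and 0.781 times. Gm42418 alone held 4501 of the 5653 CPM of this list in the whole Ncx1-/- cardiomyocyte class. It held 3739 of 5219 CPM in Ncx1+/- and 3248 of 4684 CPM in Ncx1+/+. The ratios therefore mainly describe Gm42418, and the handling genes were not compared apart from it. Mitochondrial RNA stood at 0.753, 0.635 and 0.684 times in cardiomyocyte nuclei. Paraspeckle protein genes (0.918, 0.924 and 0.898) and locus neighbours (0.962, 0.939 and 0.977) stayed near 1, and nuclear speckle genes were slightly higher (1.15, 1.16 and 1.09). The direction of these ratios was the same in the 3 genotypes for cardiomyocyte nuclei, and the part of cytoplasmic RNA left on a nucleus in the Malat1 share was not tested.

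**Figure D4:**
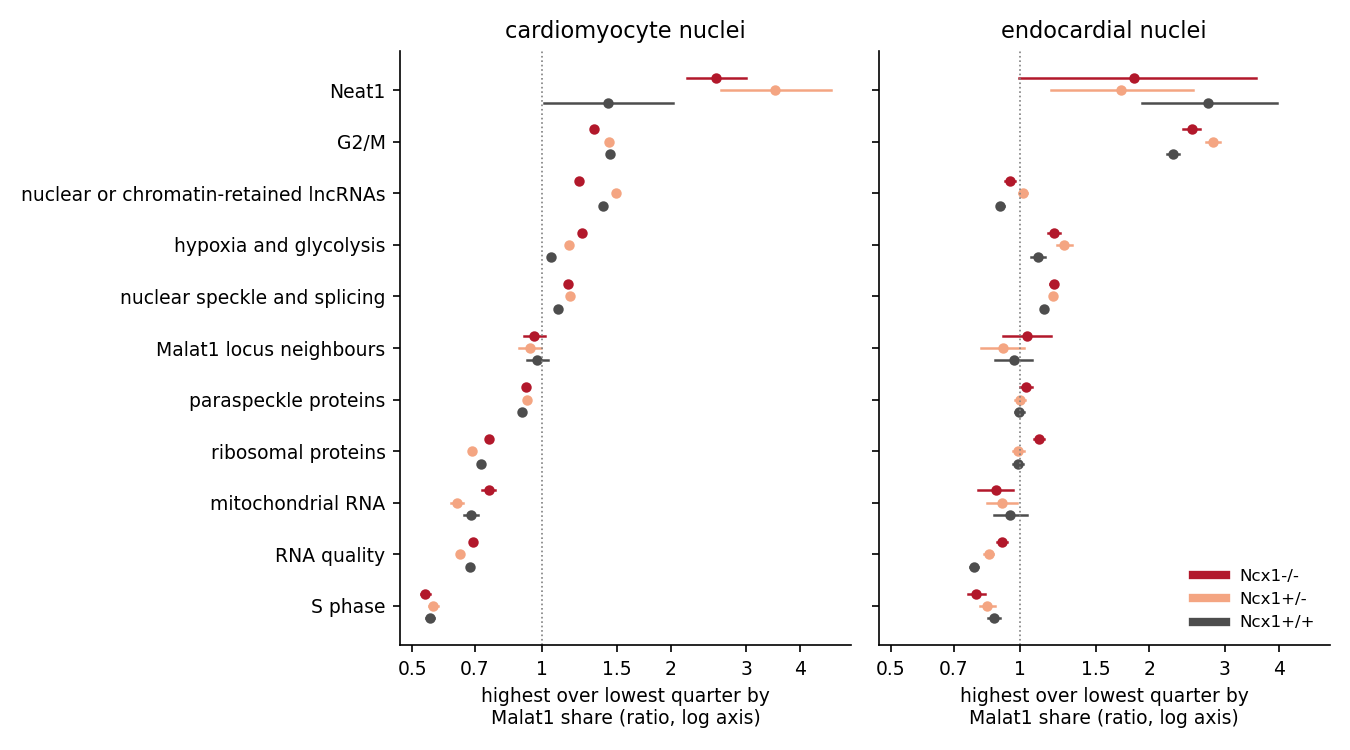
Level in nuclei with the highest 25% of Malat1 share over the level in those with the lowest 25%, at equal numbers of other UMIs (horizontal axis, ratio on a log scale, CPM of UMIs other than Malat1), for Neat1 and 10 gene lists in cardiomyocyte (left) and endocardial nuclei (right). Points are libraries of 1 genotype, lines exact 95% counting intervals. G2/M genes are at 2.27 to 2.82 in endocardial nuclei and S phase genes at 0.536 to 0.559 in cardiomyocyte nuclei.

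Single genes repeated across the libraries. Of 10618 genes measured in all 3 libraries of cardiomyocyte nuclei, 188 were at least 1.5 times higher and 296 at least 1.5 times lower in high-share nuclei of every library, with intervals that excluded 1. Those furthest above were Hs3st5, Pla2g7, Gsg1l, Lockd and Rspo3, at 2.57 to 4.13 times, and those furthest below included Ldb2, Nup210 and Grik2, at 0.182 to 0.401 times. Of 5545 genes in endocardial nuclei 151 were higher and 9 lower. Among the 9 were Emcn, an endothelial sialomucin, at 0.566, 0.610 and 0.529 times, and Mcm6, a replicative helicase subunit.

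Over 12 points, the 4 largest classes in 3 libraries, the gene whose level followed Malat1 most closely among 4714 compared was Myl7, the atrial myosin light chain, with a Pearson r of 0.96 on log2(level + 1), followed by Kdm4b, Higd1a, Naca and Acta1 at 0.94 to 0.95. Myl7 is itself a marker of the cardiomyocyte gate, so its higher level in that class is partly set by the gate. It stood at 1438, 1085 and 824 CPM of UMIs outside the pair in cardiomyocyte nuclei and 457, 307 and 237 in endocardial nuclei. For Neat1 the closest were Rere, Igf2, Pcmtd1, Foxp1 and Prkg1, at 0.81 to 0.84. The r between Malat1 and Neat1 was -0.22. The points share libraries and class makeup, so these values describe likeness and carry no test.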

How the data were processed

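The authors deposited whole-number UMI counts per gene and barcode for 3 libraries, without normalisation. Cell Ranger 6.1.0 and mouse build mm10 are named per the submitters' processing notes, whereas the deposited count files name version 9.0.0 per the file headers. The sources used here do not say if introns were counted. The members, gene lists and rankings were chosen with earlier results of these data known.

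Kept barcodes had 500 genes or more and no more than 5% of UMIs from mitochondrial genes (200, 258 and 243 failed the first limit, 0 the second, in Ncx1-/-, Ncx1+/- and Ncx1+/+). A nucleus entered a class with at least 4 distinct markers and, per 10000 UMIs, 100 cardiomyocyte, 40 endothelial, 40 erythroid, 10 epicardial or 15 mesenchyme marker UMIs. Mesenchyme-type nuclei may also pass the endothelial gate. Nuclei that passed 2 other gates (485, 584 and 527) were set aside as mixed, which was the doublet treatment; pairs of 1 class remain. Nuclei within 20% of the cardiomyocyte limit numbered 382, 396 and 550, and of the endothelial limit 332, 387 and 456.

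Counts were summed per class and library and divided by the class total. Genes with 100 counts over the libraries were measured. Intervals are Clopper-Pearson for shares and the conditional binomial for ratios, at 95% (scipy 1.17.1, numpy 2.4.6). Rankings used 10 depth strata. Alternative scalings were TMM of edgeR 4.0.16 and median-of-ratios factors. The calling rule was also run on simulated data, from which no error rate is taken for these libraries. Named genes were both members, list members called or with the most counts, the 5 most alike, and up to 5 per direction whose call changed without the members. Genes named from the rankings by Malat1 share and by Neat1 were chosen after their values were seen. Coordinates and sequences come from GENCODE M21 (GRCm38), in which mm10 positions are the same.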

Additional observations from a re-analysis of the deposited data

Results flagged for a closer look

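Neat1 moved in opposite directions in the main cell classes. Relative to Ncx1+/+ it stood at 3.95 times in Ncx1-/- cardiomyocyte nuclei (3.49 to 4.47) and at 0.475 times in Ncx1-/- endocardial nuclei (0.370 to 0.605). Relative to Ncx1+/- the ratios were 2.59 and 0.506. With 1 library per genotype the difference between the classes was not tested. The endocardial value was close to 1 at 2000 to 4000 UMIs per nucleus, where Neat1 stood at 14.1 CPM in Ncx1-/- and 13.1 CPM in Ncx1+/+.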

How the results depend on the processing

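Over 57 alternative settings of 8 results, 36 stayed within the counting interval or, for counts of genes, within 1.5 times, 21 moved and 0 changed direction. For counts of genes only the total of called genes was compared. The balance of endocardial calls did change sides, from 746 higher and 465 lower to 488 and 608 with TMM. It was 498 and 604 with median-of-ratios factors and 168 and 179 with a fold of 2. The Malat1 ratio of Ncx1-/- to Ncx1+/+ over all nuclei was 1.78 without the deepest 8% of nuclei, 1.78 at 2000 to 8000 UMIs, 1.80 without mitochondrial, ribosomal protein and haemoglobin UMIs, 1.80 for the median nucleus and 1.67 with the class makeup of Ncx1+/+. In the same order, without the last, it was 1.69, 1.69, 1.68 and 1.71 in cardiomyocyte nuclei and 1.81, 1.80, 1.72 and 1.80 in endocardial nuclei. It was 1.67 in cardiomyocyte nuclei with at least 1000 genes and 1.74 in endocardial nuclei under the stricter gate. The Neat1 ratio over all nuclei was 2.38 without the deepest 8% and 2.41 at 2000 to 8000 UMIs, and in cardiomyocyte nuclei 4.60 and 4.80. In endocardial nuclei it lay between 0.462 and 0.5001. The Neat1 ratios within classes and the Ncx1+/+ class makeup were added after seeing the data. A median nucleus gave no Neat1 value, being at 0.

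With a fold of 2, the called genes numbered 271 in place of 1069 in cardiomyocyte nuclei and 347 in place of 1211 in endocardial nuclei, because fewer genes reach that fold; Malat1 was then called in neither class and Neat1 in cardiomyocyte nuclei only. TMM moved the median log2 ratio of endocardial genes to Ncx1+/+ from 0.09 to -0.02, and 44.5% of calls were then higher, or 45.2% with median-of-ratios factors, against 61.6%. In cardiomyocyte nuclei leaving out the members gave 71.1% against 60.8%, members counted.

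No paired analysis was possible because each genotype has 1 library and no test was made. Leaving out a library was not possible either. Neat1 is limited by its counts, at 84 UMIs in Ncx1-/- endocardial nuclei.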
